A study of Mus musculus with 2 samples.

Results

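The 10 mouse genes described here encode secreted sugar-binding and acute-phase proteins. They are the galectin genes Lgals1, Lgals3, Lgals4, Lgals8 and Lgals9, the galectin-binding glycoprotein gene Lgals3bp, and the acute-phase genes Lcn2, Saa3, Hp and Cp. They were chosen by name, 10 of the 55401 gene identifiers counted, and because Lgals3 and Lcn2 had been seen higher with dioscin in these same libraries. The difference between the libraries therefore helped to choose them, and their values are a description with no test.

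RNA of hearts from C57BL/6 mice was sequenced in 2 groups of 1 library each. The dioscin library came from mice with transverse aortic constriction (TAC), in which a band tied round the aortic arch raises the pressure the ventricle must pump against, that also received dioscin, a steroidal saponin from plants, with 4 weeks given as the length of treatment. The TAC library came from mice with the same constriction and, by its treatment label, no dioscin. The constriction is thus common to both libraries, no library from unoperated hearts was analysed here, and the labels do not give sex, age or the number of hearts behind a library. With 1 library a group, the difference between mice was not measured, and every interval below is a 95% interval of counting error alone.

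Galectins are lectins that bind galactose-containing sugars on glycoproteins and leave the cell without a signal peptide. Galectin-3 is made by macrophages and other cells of injured tissue and is measured in blood as a marker of heart failure and fibrosis. Acute-phase proteins are secreted when interleukin-6 and interleukin-1 reach the cells that make them, chiefly the liver but also other tissues, and several of them bind iron, copper or haem.

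The dioscin library held 17612259 counts in genes and the TAC library 16782741. Markers listed for ventricular muscle, though not all are limited to the ventricle, summed to 50584 CPM in the dioscin library and 45895 CPM in the TAC library. Myh6 was the most abundant, and these sums do not measure ventricular RNA alone. Myl2, Myh7 and Irx4 had ratios of dioscin over TAC below 1, and Myl3, Myh6, Tnnt2, Tnni3 and Actc1 above 1. By the size rule given below, 1 of these 8 markers was lower and 7 did not pass, beside 8.77% lower over all genes measured. The lower one was Irx4, at 12.3 CPM in the dioscin library and 51.9 CPM in the TAC library, a ratio of 0.238. CPM is the count of a gene scaled to the size of its library. Markers of other tissue differed strongly between the libraries. The 6 atrial muscle markers summed to 17319 CPM in the dioscin library and 592 CPM in the TAC library, and the 5 of them without Nppa to 4656 and 3.996 CPM. The 9 mesothelial markers summed to 166 CPM in the dioscin library and 19.2 CPM in the TAC library. Most of the sum in the TAC library was Wt1, at 15.4 CPM in the dioscin library and 16.0 CPM in the TAC library (ratio 0.965). The 8 adipocyte markers summed to 2607 CPM in the dioscin library and 1345 CPM in the TAC library. Most of this was Fabp4, at 2575 and 1344 CPM, with a ratio of 1.92 that did not pass the size rule. The adipocyte markers other than Fabp4 summed to 31.1 CPM in the dioscin library and 0.811 CPM in the TAC library.

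In the dioscin library 5 of the 10 genes were higher and none was lower by a size rule, which asks for at least 1 CPM in at least 1 library, a ratio of at least 2 and a counting interval that excludes 1. These were Lcn2, Lgals3, Hp, Lgals4 and Cp, with ratios of dioscin over TAC between 3.32 and 13.6. Among all 15697 genes that reached 1 CPM, 10.5% were higher and 8.77% lower by the same rule. Of the 10 genes, 9 reached 1 CPM, Saa3 did not, and Lcn2 reached it in the dioscin library alone. The median log2 ratio of the 9 was 1.73, beside 0.01 over all genes measured. Since the choice of genes used this contrast, nothing is read from that share or that median.

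Stretches of sequence before the start sites of 4 of the genes are printed here, 250 bases each on the gene's own strand and credited to RefSeq on GRCm38.p6. They show 3 acute-phase genes beside galectin-3. Capitals mark matches to the motifs searched on both strands. These were TTGCNNAA (the C/EBP site), TTCNNNGAA (the STAT site), TATAAA (the TATA box) and GGGCGG (the Sp1 GC box).
Lcn2 (chr2:32387740-32387989, minus strand): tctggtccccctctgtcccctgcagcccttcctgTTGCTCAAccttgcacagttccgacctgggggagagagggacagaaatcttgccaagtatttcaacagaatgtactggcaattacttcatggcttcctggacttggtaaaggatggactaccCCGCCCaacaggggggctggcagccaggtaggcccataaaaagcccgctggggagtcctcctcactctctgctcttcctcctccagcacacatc
Cp (chr3:19956999-19957248, plus strand): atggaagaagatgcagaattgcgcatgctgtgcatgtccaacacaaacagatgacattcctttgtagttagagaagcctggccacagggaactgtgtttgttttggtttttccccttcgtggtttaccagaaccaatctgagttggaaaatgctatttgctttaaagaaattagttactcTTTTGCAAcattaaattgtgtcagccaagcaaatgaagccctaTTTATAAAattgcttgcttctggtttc
Saa3 (chr7:46715677-46715926, minus strand): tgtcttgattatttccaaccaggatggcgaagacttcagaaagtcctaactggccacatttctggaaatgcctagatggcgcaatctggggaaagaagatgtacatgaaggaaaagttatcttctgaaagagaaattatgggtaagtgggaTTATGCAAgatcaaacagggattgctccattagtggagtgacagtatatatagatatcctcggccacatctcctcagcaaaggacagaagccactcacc
Lgals3 (chr14:47373610-47373859, plus strand): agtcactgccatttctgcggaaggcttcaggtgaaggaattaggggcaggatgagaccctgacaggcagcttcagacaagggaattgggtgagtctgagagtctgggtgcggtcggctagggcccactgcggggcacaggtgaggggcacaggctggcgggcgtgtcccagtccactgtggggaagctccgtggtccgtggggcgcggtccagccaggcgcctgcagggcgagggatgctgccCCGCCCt

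The first base of the TTGCNNAA match lies 216 bases before the RefSeq start site in Lcn2, 70 in Cp and 99 in Saa3. C/EBP proteins are transcription factors known to drive acute-phase genes. Of the 8 genes with a sequence in the RefSeq table, the 3 acute-phase genes had this motif in a window and the 5 galectin and galectin-binding genes did not. It occurs in 9.56% of all 32851 windows of that length. Cp has 2 windows in the table, and the one further upstream holds none of the motifs. The printed Cp window also holds TATAAA on both strands, in overlapping matches, a motif of 12.4% of windows. GGGCGG was matched in Lcn2 and just before the RefSeq start site of Lgals3, and occurs in 32.7% of windows. That Lgals3 window ends at base 47373859 and lies wholly inside the gene as counted, which begins at 47367751. The Lcn2 window, with its motif matches, also lies wholly inside the gene as counted, which on the minus strand begins at 32388252. So does the Lgals8 window, which is not printed. The printed windows of Cp and Saa3 begin before the gene as counted and end inside it. The STAT motif, in 7.02% of windows, was matched in none of the genes. A match is a string of letters, and whether any factor binds there was not measured. Hp and Lgals1 have no entry.

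Among the galectins, Lgals3 and Lgals4 were higher in the dioscin library, while Lgals1, Lgals8 and Lgals9 lay within a 2-fold difference. Lgals3 encodes galectin-3, the galectin with a long flexible tail through which molecules join into lattices (ENSMUSG00000050335.17, chromosome 14, 47367751 to 47386160 on GRCm38, plus strand). It had 1024 counts in the dioscin library and 126 in the TAC library. This is 59.8 CPM (56.2 to 63.6) in the dioscin library against 7.30 CPM (6.08 to 8.69) in the TAC library, and the intervals are far apart. The ratio was 8.17 (6.81 to 9.95), or 3.03 on the log2 scale. Of the 15697 genes measured, 214 had a larger ratio.

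Lgals4 encodes galectin-4, a galectin with a pair of sugar-binding domains best known from the lining of the gut (ENSMUSG00000053964.17, chromosome 7, 28833854 to 28841708, plus strand). It had 9821 counts in the dioscin library and 2640 in the TAC library, the highest counts of the 10 genes in both. Its level was 574 CPM (562 to 585) in the dioscin library and 153 CPM (147 to 159) in the TAC library, a ratio of 3.75 (3.59 to 3.92). The 6 epithelial markers summed to 8.94 CPM in the dioscin library and 0.521 CPM in the TAC library. Most of this was Krt7, at 6.08 CPM in the dioscin library and 0.405 CPM in the TAC library. Epcam had 2 counts in the dioscin library and 0 in the TAC library, Cdh1 had 3 and 1, and Krt5 and Cldn4 had 0 in both. The epithelial markers that reached 1 CPM, Krt7 and Krt14, did so through the dioscin library alone and were higher there. The part of epithelial RNA in the level of Lgals4 was not tested.

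Lgals1 encodes galectin-1, a small galectin that acts as a dimer (ENSMUSG00000068220.6, chromosome 15, 78926725 to 78930465, plus strand). It had 2109 counts in the dioscin library and 2193 in the TAC library, a ratio of 0.970 (0.913 to 1.03), so that its interval includes 1. Lgals9 encodes galectin-9, a ligand of the immune receptor TIM-3 (ENSMUSG00000001123.15, chromosome 11, 78962974 to 78984946, minus strand). It had 565 counts and 33.0 CPM in the dioscin library against 852 counts and 49.3 CPM in the TAC library. Its ratio of 0.669 (0.6005 to 0.745) was the lowest of the 10 genes and did not pass the size rule. Lgals8 encodes galectin-8, which marks damaged endosomes for autophagy (ENSMUSG00000057554.13, chromosome 13, 12439415 to 12464944, minus strand). It had 1067 counts in the dioscin library and 1397 in the TAC library, a ratio of 0.771 (0.711 to 0.835). Opposite-strand exons of Heatr1 cover 4.203% of its exonic length. The strand setting of the counting is not given, so reads of these 2 genes may not be told apart there.

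Lgals3bp, a secreted glycoprotein that binds galectin-3 (ENSMUSG00000033880.11, chromosome 11, 118392751 to 118402092, minus strand), lay within a 2-fold difference. It had 563 counts in the dioscin library and 648 in the TAC library, at 32.9 and 37.5 CPM, with a ratio of 0.877 (0.782 to 0.983). Per length of exon, Lgals3 stood at 2.79 times the level of Lgals3bp in the dioscin library and at 0.298 times its level in the TAC library.

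**Figure D1:**
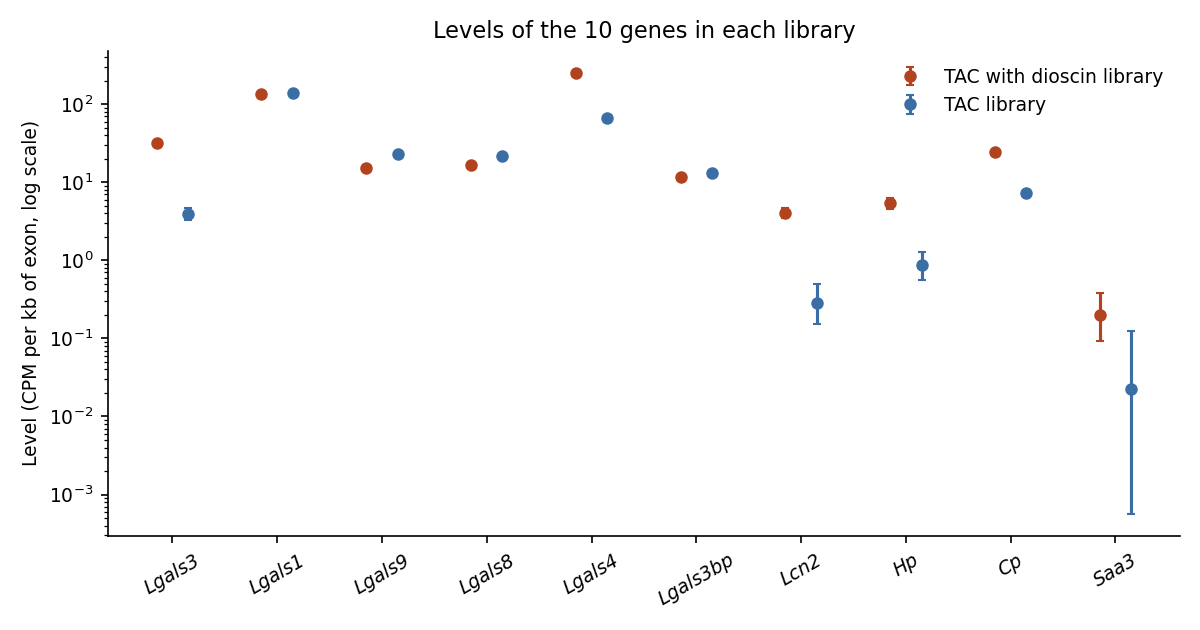
Level of each gene in the dioscin library (left point, red) and the TAC library (right point, blue), in CPM per kilobase of exon on a log axis, with the 95% counting interval of the count as bars (often smaller than the point). Lgals4 and Lgals1 stand highest in both libraries, and the points of Lgals3, Lgals4, Lcn2, Hp and Cp lie higher in the dioscin library, as does that of Saa3 with overlapping bars.

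Compared per kilobase of exon, the makeup of the 5 galectin transcripts differed between the libraries. Their levels summed to 449 CPM per kb in the dioscin library and 256 CPM per kb in the TAC library. Lgals4 took 55.2% of the sum in the dioscin library and 25.8% in the TAC library. Lgals1 took 30.4% in the dioscin library and 55.02% in the TAC library, at nearly the same level in both (136 and 141 CPM per kb). The share of Lgals3 was 7.17% in the dioscin library and 1.54% in the TAC library. Lgals8 and Lgals9 took 3.77% and 3.44% in the dioscin library, against 8.58% and 9.03% in the TAC library. With the longest transcript as the length, the share of Lgals4 was 63.4% in the dioscin library and 33.1% in the TAC library, and that of Lgals1 was 23.6% and 47.5%.

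**Figure D2:**
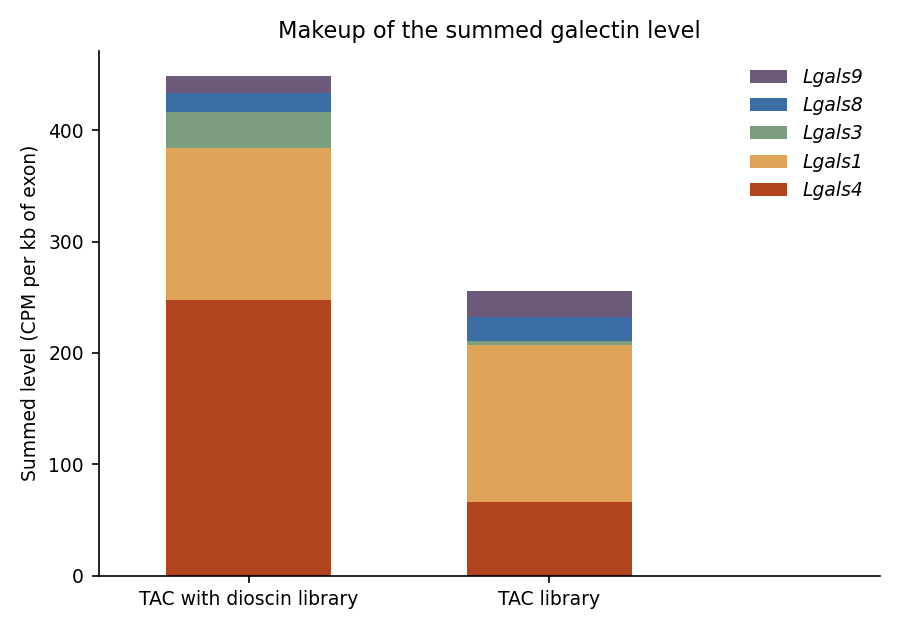
Summed level of the 5 galectin genes in the dioscin library (left) and the TAC library (right), in CPM per kilobase of exon, split by gene. The Lgals1 part is of similar height in both bars, and the Lgals4 part is 248 CPM per kb in the dioscin library and 66.0 CPM per kb in the TAC library.

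The 3 acute-phase genes that bind iron, haem or copper were higher in the dioscin library. Lcn2 encodes lipocalin-2, which withholds iron from bacteria by binding their siderophores (ENSMUSG00000026822.14, chromosome 2, 32384633 to 32388252, minus strand). It had 182 counts in the dioscin library and 13 in the TAC library, at 10.6 CPM (9.14 to 12.3) and 0.753 CPM (0.401 to 1.29). The ratio of 13.6 (8.06 to 27.0) was the largest of the 10, with 146 genes above it, and the low count in the TAC library makes its interval wide.

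Hp encodes haptoglobin, which captures free haemoglobin (ENSMUSG00000031722.10, chromosome 8, 109575128 to 109579172, minus strand). It had 148 counts in the dioscin library and 24 in the TAC library, at 8.65 and 1.39 CPM, and its ratio was 6.11 (4.02 to 10.02). Cp encodes ceruloplasmin, a copper enzyme that oxidises iron so that it can leave cells (ENSMUSG00000003617.16, chromosome 3, 19957054 to 20009145, plus strand). It had 3989 counts in the dioscin library and 1212 in the TAC library, at 233 and 70.2 CPM, and its ratio was 3.32 (3.11 to 3.54). Of the acute-phase genes Cp was by far the most abundant, at 6.01 times the level of Lcn2 per kilobase of exon in the dioscin library and 25.6 times in the TAC library.

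Saa3 encodes a serum amyloid A protein that mice also make outside the liver (ENSMUSG00000040026.8, chromosome 7, 46711998 to 46715700, minus strand). It had 9 counts in the dioscin library and 1 in the TAC library, or 0.526 and 0.0579 CPM. Its ratio of 6.39 has an interval from 1.26 to 398, so these counts do not fix its size. A count of 0 at this depth would allow up to 0.175 CPM in the dioscin library and 0.174 CPM in the TAC library.

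**Figure D3:**
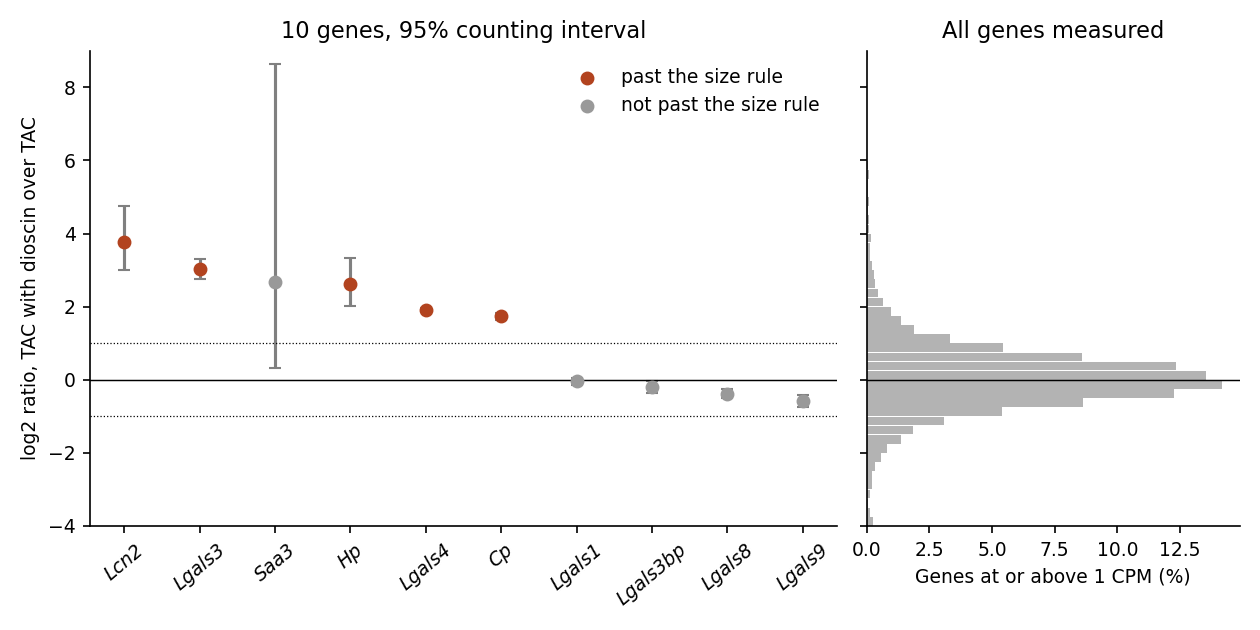
Left, log2 ratio (dioscin over TAC) for each gene, with 95% counting intervals (solid line at 0, dotted lines at a 2-fold difference in either direction). Right, the distribution of the same log2 ratio over 15697 genes, with values beyond the axis placed in the end bins; 5 genes lie above the upper dotted line with intervals that stay above it, Saa3 has an interval that spans it, and Lgals1, Lgals3bp, Lgals8 and Lgals9 lie between the lines.

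The order of the levels per kilobase of exon differed between the libraries. In the dioscin library it ran Lgals4 (248 CPM per kb), Lgals1, Lgals3 (32.2), Cp (24.4), Lgals8, Lgals9, Lgals3bp, Hp (5.38), Lcn2 (4.05) and Saa3 (0.202). In the TAC library it ran Lgals1 (141 CPM per kb), Lgals4, Lgals9, Lgals8, Lgals3bp, Cp (7.34), Lgals3 (3.93), Hp (0.865), Lcn2 (0.287) and Saa3 (0.0222). The counting intervals of Lgals8 and Lgals9 overlapped in both libraries and those of Hp and Lcn2 in the dioscin library, and other neighbours in each order did not overlap. Among the genes that reached 1 CPM, the share at a lower level than Lgals3 was 92.9% in the dioscin library and 52.8% in the TAC library. For Lcn2 that share was 53.2% in the dioscin library and 5.04% in the TAC library, and for Lgals1 it was 98.2% and 98.7%.

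Sequence shared with other genes touched few of the transcripts. Of all 50-base stretches of their annotated transcripts, none of Lgals1, Lgals3, Lgals4, Lgals9, Lgals3bp, Lcn2 or Hp occurred in a transcript of another gene. The share was 4.15% for Saa3, 3.87% for Lgals8 and 0.618% for Cp. For 100-base stretches it was 1.47% for Lgals8, 0.102% for Cp and 0 for Saa3. Copies outside annotated transcripts were not searched.

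Of 5 further galectin genes matched, Lgalsl, a galectin-like gene, was the only 1 that reached 1 CPM, at 32.8 CPM in the dioscin library and 20.8 CPM in the TAC library, a ratio of 1.58 (1.38 to 1.81). Lgals2, Lgals7 and Lgals12 stayed below 1 CPM in both libraries, and Grifin had 0 counts in both. Lgals7, a galectin of skin-like epithelium picked after its values were seen, had 16 counts in the dioscin library and 2 in the TAC library, a ratio of 6.66 (1.90 to 72.4).

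Another list held genes that build or carry the sugars that galectins bind. Of its 19 measured genes of glycan synthesis and galectin counter-receptors, 3 were higher in the dioscin library and none was lower, with 16 not past the size rule and a median log2 ratio of 0.23. Over all genes 10.5% were higher. Scaled by total counts, 1 gene of the list was higher, beside 9.2% of all genes. St6gal1 adds the terminal sialic acid that blocks binding of several galectins, and stood at 22.3 CPM in the dioscin library and 7.88 CPM in the TAC library, a ratio of 2.82 (2.32 to 3.46). The lysosomal glycoproteins Lamp1 and Lamp2, which carry much of a cell's galectin-binding sugar, had ratios of 2.11 (2.0 to 2.22) and 2.07 (1.94 to 2.22). Lamp1 shares 9.31% of its exonic length with an opposite-strand gene. The integrin gene Itgb1, the most abundant of the list, had a ratio of 1.62 (1.54 to 1.69).

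Among 26 further acute-phase genes, listed as liver-type though not all are made there, 9 reached 1 CPM. Of these 6 were higher in the dioscin library and none lower (median log2 ratio 1.80), beside 10.5% higher over all genes, but Itih3, Ptx3 and Serpina1b entered the count through the dioscin library, where alone they reached 1 CPM. Serpina3n, a secreted protease inhibitor, stood at 55.4 CPM in the dioscin library and 5.91 CPM in the TAC library, a ratio of 9.34 (7.64 to 11.6), with the reservation that it belongs to a family of close copies. The complement gene C3 was the most abundant, at 434 CPM in the dioscin library and 99.1 CPM in the TAC library, a ratio of 4.38 (4.15 to 4.62). Itih3, which encodes a matrix-binding plasma protein, had 30 counts in the dioscin library and 5 in the TAC library, a ratio of 5.59 (2.33 to 20.0). Ptx3, a pattern-recognition protein made outside the liver, had 20 counts in the dioscin library and 4 in the TAC library, a ratio of 4.60 (1.69 to 20.3). The list's most liver-bound genes were at or near the limit of detection, with Orm2, Orm3, Crp, Apcs, Fgg, Ambp and Saa4 at 0 counts in both libraries. Hepatocyte markers were low, with a sum of 6.08 CPM in the dioscin library and 1.04 CPM in the TAC library, where Alb, Apoa1 and Ttr were at 0 counts. Their part in the results for Hp and Cp was not tested.

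Partners of lipocalin-2, haptoglobin and ceruloplasmin in iron handling were among the genes that differed. Of 19 measured genes of iron, copper and haem handling, 6 were higher and 1 was lower, with 12 not past the size rule, beside 10.5% higher and 8.77% lower over all genes. Their median log2 ratio was 0.61. Lrp2 and Bdh2 entered the count through the dioscin library, where alone they reached 1 CPM. Lrp2, the megalin receptor that takes up lipocalin-2 in kidney, had 45 counts in the dioscin library and 1 in the TAC library, a ratio of 30.6 (7.74 to 1833). Cd163, the receptor for haptoglobin bound to haemoglobin and itself a macrophage marker, stood at 56.1 CPM in the dioscin library and 14.7 CPM in the TAC library, a ratio of 3.83 (3.33 to 4.42). Bdh2, proposed to make a mammalian siderophore, had a ratio of 5.62 (2.97 to 12.8). Ferritin heavy chain, Fth1, the most abundant of the list, stood at 1758 CPM in the dioscin library and 761 CPM in the TAC library, a ratio of 2.31 (2.26 to 2.36), with the reservation that processed copies could share its reads. The transferrin receptor Tfrc was the gene that was lower, at 16.1 CPM in the dioscin library and 56.6 CPM in the TAC library, 3.50-fold lower (3.07 to 4.02).

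Further partners were picked after their values were seen. Hmox1, the enzyme that breaks down haem, stood at 19.6 CPM in the dioscin library and 6.49 CPM in the TAC library, a ratio of 3.01 (2.43 to 3.77). Slc40a1, ferroportin, through which the iron oxidised by ceruloplasmin leaves the cell, stood at 23.3 CPM in the dioscin library and 6.54 CPM in the TAC library, a ratio of 3.54 (2.88 to 4.42). Heph, the membrane-bound relative of ceruloplasmin, had a ratio of 1.94 (1.41 to 2.72), and Slc22a17, a proposed lipocalin-2 receptor, had 0.748 (0.595 to 0.937); neither passed the size rule.

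Of 21 measured genes of interleukin-6, interleukin-1 and STAT3 signalling, 4 were higher and 2 lower, with 15 not past the size rule, where 10.5% of all genes measured were higher and 8.77% lower. Their median log2 ratio was 0.37. Both lower genes, Il1b and Lif, entered the count through the TAC library, where alone they reached 1 CPM. Cebpd, a C/EBP factor of the acute phase, stood at 66.4 CPM in the dioscin library and 14.998 CPM in the TAC library, a ratio of 4.42 (3.86 to 5.08); an opposite-strand gene covers 15.003% of its exonic length. Lrg1, an interleukin-6 responsive glycoprotein, had a ratio of 3.88 (3.22 to 4.74), and the receptor chain Il6ra had 3.15 (2.28 to 4.49). The cytokine Il1b had 16 counts in the dioscin library and 78 in the TAC library, 4.72-fold lower (2.80 to 8.87). Il6 itself, named like Socs3 and Stat3 after its values were seen, had 7 counts in the dioscin library and 1 in the TAC library. The shared receptor chain Il6st, with the highest mean CPM of the list over both libraries, had a ratio of 1.80 (1.69 to 1.91). The ratios of Socs3 and of the factor Stat3 were 1.79 (1.47 to 2.18) and 1.45 (1.34 to 1.57).

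**Figure D4:**
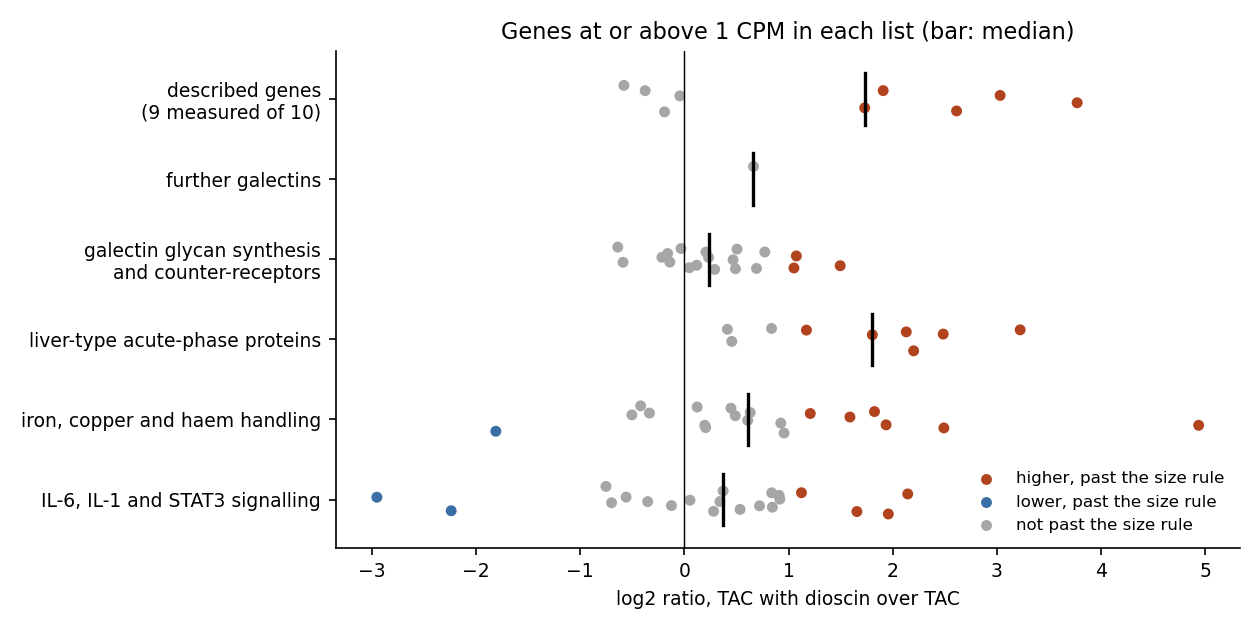
Log2 ratio (dioscin over TAC) for each gene that reached 1 CPM, by list, with the described genes in the top row and a black bar at each median. Red points are higher and blue points lower by the size rule; the further acute-phase genes have a median of 1.80 and the glycan and counter-receptor genes one of 0.23.

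Markers of some cells that could supply these transcripts differed between the libraries as well, and in bulk RNA fewer cells of a type and less RNA per cell cannot be told apart. The counts of markers past the size rule stand beside 10.5% higher and 8.77% lower over all genes measured. Of 14 macrophage markers 2 were higher and 2 lower, near those shares, so nothing is read from these counts. The 14 summed to 461 CPM in the dioscin library and 270 CPM in the TAC library. C1qa, with the highest mean CPM over both libraries, stood at 74.7 CPM in the dioscin library and 47.0 CPM in the TAC library, a ratio of 1.59. The markers past the size rule were Lyve1, at 73.6 CPM in the dioscin library and 7.59 CPM in the TAC library (ratio 9.67), Cd163 (ratio 3.83), Ccr2 (ratio 0.249) and Fcgr1 (ratio 0.447), beside a ratio of 8.17 for Lgals3. The part of macrophage RNA in the level of Lgals3 was not tested. Neutrophil markers, listed because neutrophils store lipocalin-2 and haptoglobin, were lower, with a sum of 5.84 CPM in the dioscin library and 19.7 CPM in the TAC library. All 3 of these 10 markers that reached 1 CPM were lower, led in abundance by Csf3r at 3.15 and 10.7 CPM, and Ly6g and Elane had 0 counts in both libraries. The part of neutrophil RNA in the levels of Lcn2 and Hp was not tested.

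The counts in the further marker lists also stand beside 10.5% higher and 8.77% lower over all genes measured. Of 10 fibroblast markers 5 passed as higher and none as lower. These 10 summed to 3590 CPM in the dioscin library and 1441 CPM in the TAC library, led by Gsn at 1900.3 and 665.6 CPM. Mesothelial markers were higher in 8 of 9 cases, with Msln at 47.9 CPM in the dioscin library and 0.232 CPM in the TAC library, where Krt8 and Krt18 were at 0 counts. All 5 atrial markers that reached 1 CPM were higher, and Mybphl and Bmp10 were at 0 counts in the TAC library. Of 6 measured adipocyte markers 5 were higher, with Cidec, Plin1 and Retn at 0 counts in the TAC library and Lep at 0 in both. Of 7 measured B cell markers 6 were lower, among them Igkc, picked after its values were seen, at 4.50 CPM in the dioscin library and 15.9 CPM in the TAC library. Ighm, with the highest mean CPM over both libraries, was the marker not past the size rule, at 11.3 CPM in the dioscin library and 15.6 CPM in the TAC library. Of 5 measured markers of T and NK cells 3 were lower, with Cd8a at 2.22 and 5.79 CPM. Endothelial markers, 2 of 7 higher and 1 lower, summed to 1590.1 CPM in the dioscin library and 1490.2 CPM in the TAC library, with Pecam1 at 484 and 221 CPM. The part of the atrial, mesothelial, fat and fibroblast RNA in the higher Lgals3, Lgals4, Lcn2, Hp and Cp was not tested.

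**Figure D5:**
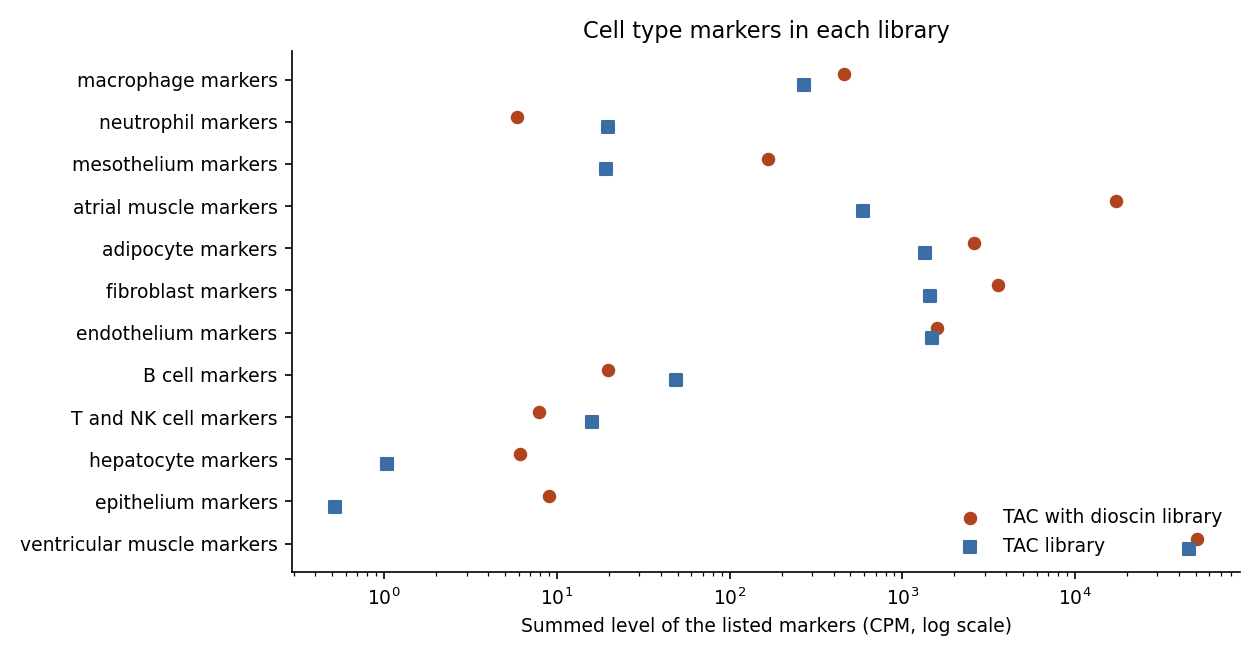
Summed level of each list of cell type markers in the dioscin library (red circles) and the TAC library (blue squares), in CPM on a log axis. The sums of atrial, mesothelial, hepatocyte and epithelial markers lie higher in the dioscin library and those of neutrophil, B cell, and T and NK cell markers lower. The endothelial sums lie close together, as do those of the markers listed for ventricular muscle, not all of which are limited to the ventricle.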

How the data were processed

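RNA was extracted from frozen hearts with Trizol and made into libraries with an Illumina TruSeq kit from 1 ug of total RNA, per the labels' protocols. What the authors deposited are unscaled read counts by gene. Alignment to mm10 used HISAT2 2.1.0 and counting HTSeq, per the submitters' processing notes. For HTSeq, the version, strand setting and annotation release are not given in the sources used here. Its 5 lines for reads given to no gene, 71.5% of reads in the dioscin library and 73.8% in the TAC library, were left out; reads with several alignments were 36.5% and 38.2%, so genes with copies are undercounted.

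Identifiers were matched without version to GENCODE M21, whose build GRCm38 is that of mm10 (55141 of 55401). Counts were scaled with TMM in edgeR 4.0.16 (R 4.3.3). Ratios carry a pseudocount of 0.5, and intervals are exact 95% Clopper-Pearson intervals of the raw counts (Poisson for levels). They cover counting error only, since PCR copies were not told apart. The floor for a count of 0 is 3 counts. Lengths are merged exons. On simulated data the size rule was tested first. No test of the treatment was possible with 1 library a group. The genes, lists and motifs were chosen with earlier results of these data known. Genes named are the 10, up to 4 past the size rule from each pathway list by the interval bound nearest 1 with the one of highest mean CPM, and the marker of highest mean CPM of each cell type; others were picked after their values were seen or are given as calls or counts at 0. Alternatives were total-count, DESeq2 1.42.0 and mitochondria-free scaling, a pseudocount of 1, no filter or 5 CPM, a ratio of 1.5, protein-coding genes as background and the longest transcript.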

Additional observations from a re-analysis of the deposited data

How the results depend on the processing

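Lcn2, Lgals3, Hp, Lgals4 and Cp stayed higher by the size rule under each alternative listed, and Saa3 joined them when the low-count filter was dropped. No log2 ratio of the 10 genes left its counting interval under another scaling or a pseudocount of 1, except Lgals4 at 1.83 when libraries were scaled by total counts. With the longest transcript as length, Cp moved to place 3 and Lgals3 to place 4 of the levels in the dioscin library, and Lcn2 to place 8 and Hp to place 9. With a ratio of 1.5 the counts higher were 1 of 1 measured for the further galectins and 5 of 19 for glycan synthesis and counter-receptors. They were 10 of 19 for iron handling and 9 of 21 for cytokine signalling, beside 20.3% of all genes. The counts lower were 2 of 19 for glycan synthesis and 4 of 21 for cytokine signalling. Total-count scaling left 1 glycan gene higher. Scaling without mitochondrial genes, or no filter, made 1 further galectin higher. A 5 CPM filter left 2 liver-type acute-phase genes higher and 0 cytokine signalling genes lower. Over all genes, 3187 of 15697 were higher and 2815 lower with a ratio of 1.5. With a 5 CPM filter 1045 of 11897 were higher (8.78%) and 695 lower. The share of all genes higher was 9.2% with total-count scaling, 10.8% with mitochondria-free scaling and 3.65% with no filter. No paired analysis was possible because each group had 1 library, and for the same reason no library could be left out.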
